A study of Mus musculus with 10 samples.

Results

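Tfrc encodes transferrin receptor 1, the membrane protein through which cells take up iron bound to transferrin. On the arrays of this study it was read by 1 probe, which the files tie to the RefSeq transcript NM_011638.3. It is 1 of 15 genes that the files name by accession, among 60915 probes analysed. The probe was chosen by that accession and not by its values, and it was printed as 20 spots on every array. The sequence of the probe and its place within the transcript were not used here.

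The receptor carries transferrin into endosomes, where the iron is released, and it then returns to the cell surface. Immature red cells hold it at high density because they need iron for haem, and they lose it as reticulocytes mature. Its messenger RNA carries iron-responsive elements, to which iron regulatory proteins bind when iron is scarce, and this binding protects the message from decay. Dividing cells, activated lymphocytes among them, also make the receptor, so its transcript in blood is not the mark of a single cell type.

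Whole blood RNA came from 10 female C57BL/6 mice aged 3 months. The exposed group of 5 mice had received 40 µg of multi-walled carbon nanotubes (MWCNT), tubes of rolled carbon sheets, by pharyngeal aspiration, and their blood was taken 56 days later. The other 5 mice were controls that had received the vehicle solution by itself. Each mouse was measured on 1 single-colour Agilent array for messenger RNA and long non-coding RNA, and no mice were pooled.

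Of the 34 iron and red cell genes listed for comparison, Tfrc was the single one that carried a name in the files. None of the 24 listed markers of neutrophils, monocytes, B, T and NK cells, platelets and dividing cells carried one. The makeup of the blood was therefore not analysed here, and the tissue named in the labels could not be checked against defining markers. In whole blood, fewer cells of a type and less RNA per cell cannot be told apart.

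The file headers record 2 scan runs in which the same positions recur, and these were taken as 2 slides. Slide 1 held all 5 controls and MWCNT replicates 1 to 3, while slide 2 held MWCNT replicates 4 and 5 and no control. On slide 1 between 42.0% and 47.8% of probes were well above background, against 55.3% and 58.5% on the 2 arrays of slide 2. Probes designed to match no transcript read 62.9 to 74.3 on slide 1 and 41.1 to 42.6 on slide 2, as pixel intensity averaged over the array.

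Tfrc was readily detected in the blood of every mouse. Before any scaling, the median processed signal of its spots was 683 in control 1, 588 in control 2, 552 in control 3, 469 in control 4 and 543 in control 5. In the MWCNT group it was 621 in replicate 1, 918 in replicate 2, 858 in replicate 3, 1224 in replicate 4 and 421 in replicate 5. The MWCNT mice thus held both the highest and the lowest unscaled Tfrc signal. Whole arrays differed in brightness too, with a 75th percentile of 1079 to 1345 on slide 1 and 1781 to 1809 on slide 2. All 20 spots were well above background on each of the 10 arrays, and 0 of the 200 spots were saturated. The pixel intensity of the spots was 7.47 to 29.7 times that of the non-matching probes, the highest ratio being that of MWCNT 4.

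**Figure D1:**
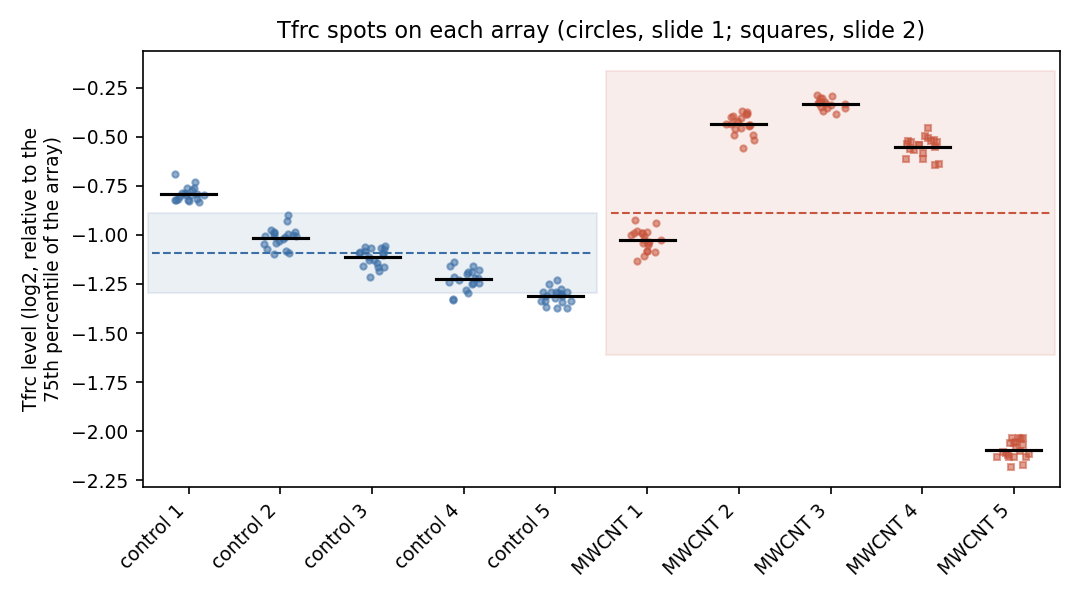
Level of each Tfrc spot (points) and their mean (black bar) on the 10 arrays. The axis is in log2 units, with 0 at each array's 75th percentile. Circles are arrays of slide 1 and squares arrays of slide 2, dashed lines are group means over 5 mice, and shaded bands are 1 SD between mice. The controls lie between -1.31 and -0.79, MWCNT 2, 3 and 4 lie above them, MWCNT 1 lies among them and MWCNT 5, at -2.09, lies below.

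Levels were then expressed as log2 distance from each array's 75th percentile, which puts arrays of different brightness on a shared scale. In the controls the Tfrc level was -0.79 in replicate 1, -1.01 in replicate 2, -1.11 in replicate 3, -1.23 in replicate 4 and -1.31 in replicate 5. After MWCNT it was -1.03 in replicate 1, -0.44 in replicate 2, -0.33 in replicate 3, -0.55 in replicate 4 and -2.09 in replicate 5. Of the 5 MWCNT mice, 3 lay above every control, 1 lay among the controls and 1 lay below every control, so the groups overlapped.

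Set against the mean of the controls, MWCNT 3 was 1.69-fold higher, MWCNT 2 was 1.57-fold higher and MWCNT 4 was 1.45-fold higher. MWCNT 1 was at 1.05 times that mean, and MWCNT 5 was 2.00-fold lower. The highest of the 10 arrays exceeded the lowest 3.39-fold. Among the 5 controls alone the highest exceeded the lowest 1.43-fold.

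The 20 spots show how much of this could be reading error. Within an array the levels of the Tfrc spots had an SD of 0.027 to 0.055 log2 units, which gives an SE of 0.0068 to 0.013 for the mean of an array. These errors cover the reading of 1 labelled sample and not the labelling or the blood draw. From the highest array to the lowest, 8 of the 9 gaps between neighbours were at least 5.43 times the SE of the gap from spots. The exception was the gap between control 2 and MWCNT 1, at 0.012 log2 units or 0.74 times its SE, so these 2 mice did not differ beyond spot error. The mean of the upper spots of an array differed from that of the lower spots by at most 0.046 log2 units, and that of the left from the right spots by at most 0.064. Keeping the 8 spots marked as outliers, 4 of which were on MWCNT 3, moved no array by more than 0.0088.

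The comparison of MWCNT with control asks whether exposure leaves a change in blood transcripts 56 days on. Tfrc averaged -0.89 ± 0.72 (SD, n = 5) in the exposed and -1.09 ± 0.20 (SD, n = 5) in the control mice. The log2 fold change of 0.20 (SE 0.30) was within the spread between mice, with a limma adjusted p = 0.837 over 28010 tested probes. A 2-sided exact permutation test over the 252 assignments of mice to groups gave p = 0.603 for the same difference. The 95% interval ran from 0.73-fold to 1.82-fold of the control level. The medians of the groups stood further apart than the means, at -0.55 and -1.11. Over all probes tested, 0% passed the limma threshold of 0.05 after adjustment, while 815 probes, or 2.91%, had an unadjusted p under that value.

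MWCNT 5 had the greatest hold on this estimate. Without it the log2 fold change of Tfrc was 0.50 (SE 0.20, limma unadjusted p = 0.0292, adjusted p = 0.991). Without MWCNT 3 it was 0.06, and leaving out any other single mouse gave values between these.

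**Figure D2:**
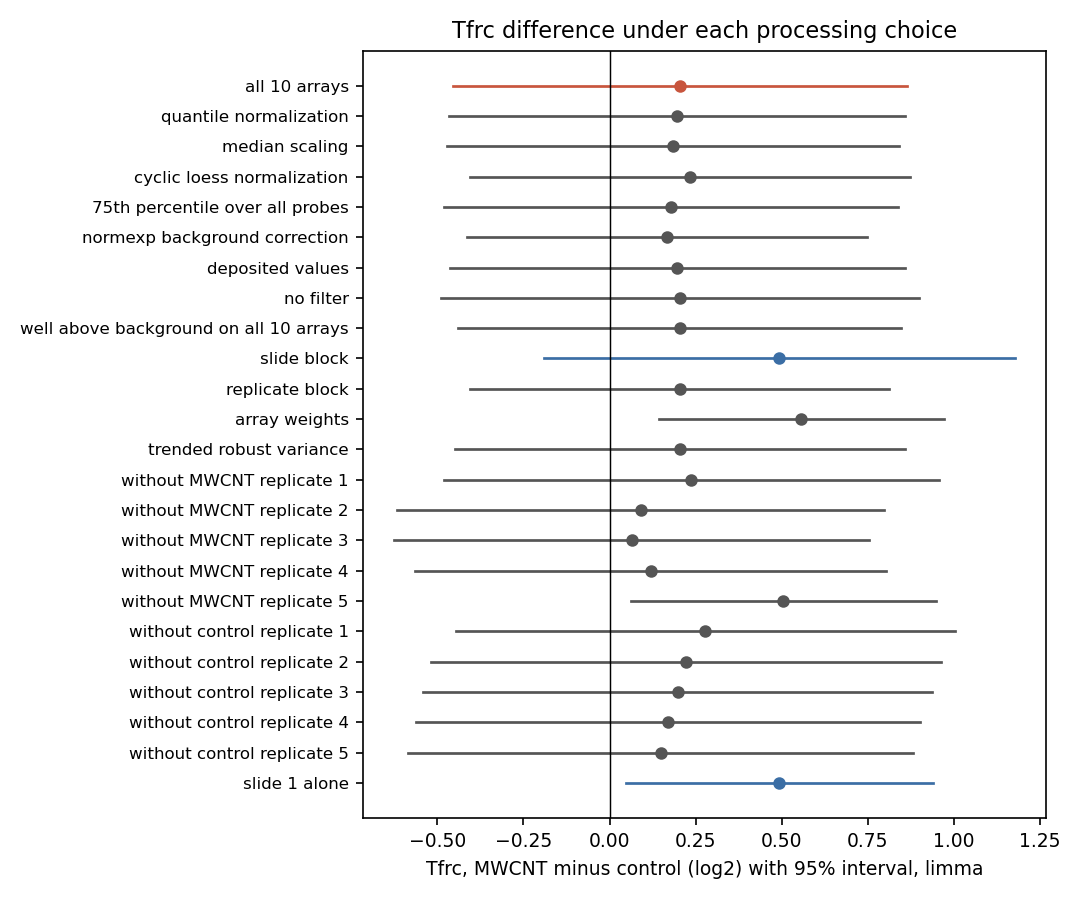
Difference in Tfrc between MWCNT and control mice (log2, points) with its 95% interval from limma (lines), for all 10 arrays (top), for each other processing choice, for each mouse left out, and for slide 1 by itself (bottom). Every point lies above 0, from 0.06 without MWCNT replicate 3 to 0.56 with array weights, and the intervals of most choices include 0.

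Within slide 1, where both groups were scanned together, Tfrc averaged -0.60 ± 0.37 (SD, n = 3) in the exposed and -1.09 ± 0.20 (SD, n = 5) in the control mice. The log2 fold change was 0.49 (SE 0.20), or 1.41-fold with a 95% interval from 1.03-fold to 1.92-fold. Its limma unadjusted p = 0.0336 did not survive adjustment over the probes tested (adjusted p = 1.00). The 2-sided exact permutation test over the 56 assignments gave p = 0.0714, where the smallest value possible is 0.0179. MWCNT 2 and 3 lay above all 5 controls and MWCNT 1 did not. Of all tested probes, 1.22% were higher after MWCNT on slide 1 at an unadjusted p under 0.05, and 0% passed the adjusted threshold. In absolute size the change of Tfrc was matched or exceeded by 5.00% of tested probes on this slide.

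The estimate on slide 1 moved with single mice too. It was 0.71 without MWCNT 1, with a limma unadjusted p of 0.00548, and 0.36 without MWCNT 3, with an unadjusted p of 0.147. The unadjusted p was 0.05 or more in 5 of the 8 fits that left out 1 mouse: those without MWCNT 2, MWCNT 3 and controls 3, 4 and 5. It was 0.056 with the percentile taken over all probes. With the slide as a term in the fit to all 10 arrays, the log2 fold change was 0.49 by construction, since slide 2 held no control. Its SE in that fit was 0.31 (limma adjusted p = 1.00). The residual spread of that fit takes in the difference between the 2 mice on slide 2. Under that fit limma called 0% of probes.

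The mice measured on slide 2 pointed in opposite directions for Tfrc. MWCNT 4 lay at -0.55 and MWCNT 5 at -2.09, a difference of 1.54 log2 units or 2.91-fold between 2 mice of the same group, scanned together. Among the 27845 tested probes with a value on all 10 arrays, 3.00% differed between these 2 mice by at least as much in either direction. The median difference of those probes was -0.03. The mean of the pair was lower than that of the 3 MWCNT mice on slide 1 by a log2 value of -0.72 (SE 0.47, limma adjusted p = 0.259). In that comparison limma called 7559 probes, or 27%. That count fell with a mouse of slide 1 left out, to 889 without MWCNT 1, 937 without MWCNT 3 and 0 without MWCNT 2. The probes with an unadjusted p under 0.05 changed less, from 12920 with all 5 mice to 10632, 10851 and 10900 in these fits to 4 arrays. Leaving out MWCNT 4 or MWCNT 5 keeps a single array on slide 2, so nothing is concluded from the counts of those fits. Without MWCNT 5 the Tfrc value was 0.05, and without MWCNT 4 it was -1.50. The Tfrc difference between slides therefore rested on MWCNT 5.

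**Figure D3:**
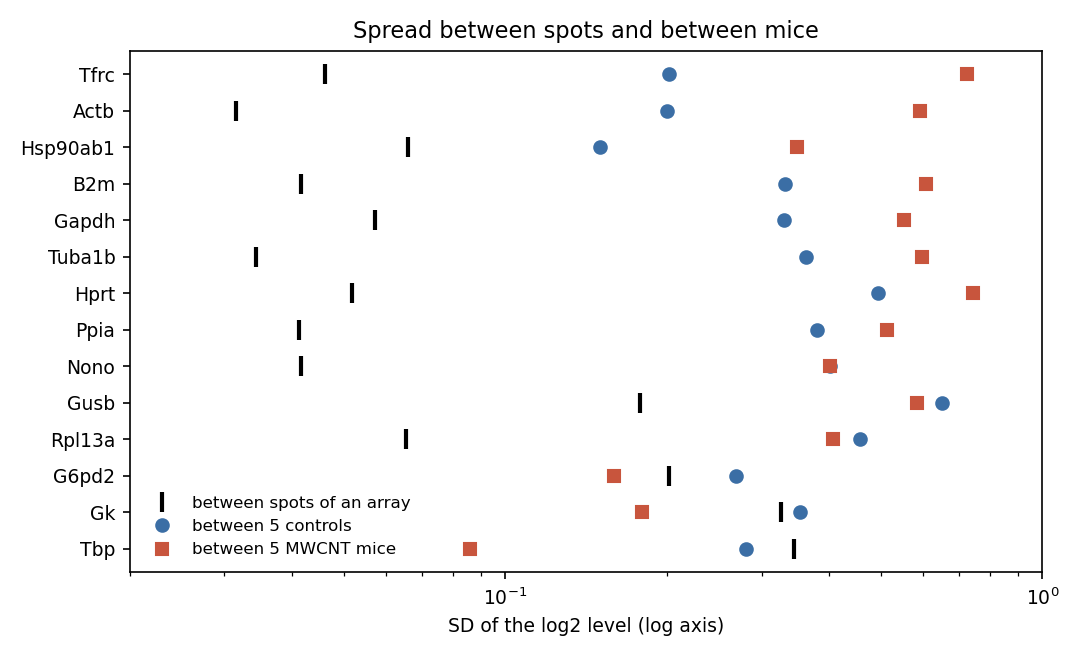
Standard deviation of the log2 level of Tfrc and 13 other named genes, on a log axis, between spots of an array (black bars, pooled over 10 arrays), between the 5 controls (blue circles) and between the 5 MWCNT mice (red squares). Genes are ordered by the ratio of the last 2 quantities, and Tfrc, at the top, has 0.20 between controls and 0.72 after MWCNT.

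The spread of Tfrc between mice exceeded that between spots in both groups, and MWCNT 5 set much of it after exposure. Pooled over arrays, its spot SD was 0.046 log2 units. The SD between controls was 4.37 times that value and the SD between MWCNT mice 15.7 times. Of the 14 named genes that were well above background on at least 5 arrays, Tfrc ranked 9 from the top for the first ratio, where Tuba1b had 10.6, and 3 for the second, where Actb had 18.7 and Tuba1b 17.4. It ranked 12 for the SD between controls itself and 2 for the SD between MWCNT mice. The gene above it was Hprt, an enzyme of purine salvage, with an SD of 0.74 after MWCNT and 0.49 in controls.

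The SD of Tfrc after MWCNT was 3.59 times its SD in controls. Among the 27845 tested probes with complete values the median of this ratio was 1.42, and 91.0% had a smaller ratio than Tfrc. Without MWCNT 5 the SD of Tfrc after MWCNT was 0.31 and the ratio 1.52, against a median of 1.43, and 54.1% of probes had a smaller ratio. Without control 1 the ratio was 5.58. Among controls 25.2% of those probes had a smaller SD than Tfrc, and among MWCNT mice 85.6% did. Counting just the 3 MWCNT mice of slide 1, the SD of Tfrc was 0.37 and 75.5% of probes had a smaller one. Slide 2 is part of the MWCNT spread of every probe and held no control, so slide and exposure cannot be told apart in these ratios.

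The other named genes served as a ruler within each array, since a difference between 2 probes of an array does not depend on a constant applied to that array. They are reference genes of varied function, among them Actb (cytoplasmic actin), Gapdh (a glycolytic enzyme), Hsp90ab1 (a chaperone) and B2m (beta-2 microglobulin). Of the 14 others, Ldhal6b was well above background on 0 arrays, and the remaining 13 were used. Within the MWCNT group these genes did not shift alike between slides. Slide 2 minus slide 1 ran from -1.21 for Hprt (limma adjusted p = 0.0343) to 0.63 for Hsp90ab1 (limma adjusted p = 0.0528). Slide 2 held no control, so slide and exposure cannot be told apart in the relative values over all arrays. Tfrc minus the mean of the 13 genes was -0.68, -1.30, -1.40, -0.99 and -1.43 in controls 1 to 5. It was -1.34, -0.41, -0.45, -0.02 and -1.75 in MWCNT mice 1 to 5. On this scale too MWCNT 2, 3 and 4 lay above every control and MWCNT 5 lay below, while MWCNT 1 lay among them.

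Relative to those genes Tfrc averaged -0.79 ± 0.72 (SD, n = 5) in exposed mice, while controls averaged -1.16 ± 0.32 (SD, n = 5). These means lay 0.37 log2 units apart, which did not exceed the spread between mice (2-sided exact permutation p = 0.349). On slide 1 it was 0.43 (exact permutation p = 0.196). The mean of the 13 genes on their own differed by -0.16 between the groups over all arrays (exact permutation p = 0.389) and by 0.06 on slide 1 (exact permutation p = 0.607). MWCNT 4 had the highest relative level, with Tfrc 0.54 above the control mean, while the other genes averaged -0.53 there against 0.07 in controls. MWCNT 5 had a mean of -0.35 for the other genes, while its Tfrc was 2.00-fold lower than in controls.

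**Figure D4:**
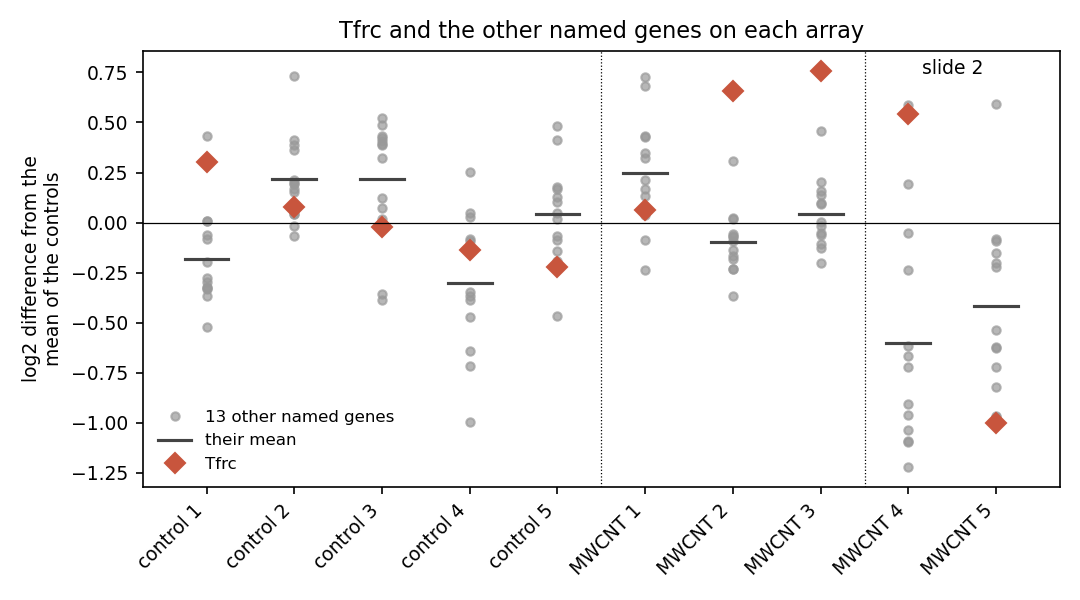
Log2 difference of Tfrc (red diamonds) and of the 13 other named genes (grey points, mean as a dark bar) from the mean of the 5 controls, on each array. Dotted lines separate the controls, the MWCNT mice of slide 1 and those of slide 2. On MWCNT 4 Tfrc lies at 0.54, and on MWCNT 5 it lies 2.00-fold under the control mean.

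Taken gene by gene, the difference between Tfrc and the other gene was higher after MWCNT for 12 of 13 genes over all arrays, from 0.23 against Gk to 0.67 against Actb. The remaining gene was Hsp90ab1, at -0.01. None of the 13 comparisons passed, with exact permutation p between 0.0873 and 0.984 and Benjamini-Hochberg adjusted values of 0.636 or more. On slide 1 all 13 differences were above 0, from 0.24 against Hprt to 0.55 against Actb. There the smallest exact permutation p was 0.0357, for Tfrc against Hsp90ab1 at 0.53, with an adjusted p of 0.371. The 13 comparisons share the Tfrc values and are not independent of one another.

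The pattern of Tfrc over mice was not shared by any other named gene to a degree the test could call. Over the 8 arrays of slide 1 the gene most like it was Nono, which encodes an RNA-binding protein of paraspeckles, with Pearson's r = 0.46 (exact permutation p = 0.257) and Spearman's rho = 0.55 (exact permutation p = 0.171). The Benjamini-Hochberg adjusted values over 13 genes were 0.981 and 0.882. Without the 2 arrays farthest from the median of Tfrc, MWCNT 2 and 3, r for Nono was 0.61. Next came Gusb, a lysosomal enzyme gene, with r = 0.05 and rho = 0.31 (exact permutation p = 0.898 and 0.462), and B2m with r = 0.01 and rho = -0.12 (exact permutation p = 0.981 and 0.793).

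At the other end were Actb with r = -0.42 and rho = -0.24 (exact permutation p = 0.294 and 0.582) and Tuba1b, an alpha-tubulin gene, with r = -0.30 and rho = -0.29 (exact permutation p = 0.458 and 0.501). Gk, the glycerol kinase gene, had r = -0.24 and rho = -0.21 (exact permutation p = 0.562 and 0.619). Without MWCNT 2 and 3 the values of r were 0.37 for Gusb, -0.66 for B2m, -0.16 for Actb, -0.20 for Tuba1b and -0.68 for Gk. Those for B2m and Gk in particular depended on these 2 arrays. Outside the genes most and least like Tfrc, r moved from -0.07 to 0.60 for Hsp90ab1 and from -0.11 to 0.51 for G6pd2. The order of likeness therefore depended on these 2 arrays too. The adjusted p was 0.981 for Pearson's r of each of these genes and 0.882 for rho. As a description of the whole array, 27 of 27844 other tested probes, or 0.097%, had r of at least 0.9 with Tfrc over slide 1. For 35, or 0.126%, r was -0.9 or below. Whether these shares exceed those of unrelated values was not tested. The files give these probes no gene name.

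The place of each array on slide 1 is recorded in the headers. In the first column, which held 4 controls, the Tfrc level was -0.79, -1.01, -1.11 and -1.23 from row 1 to row 4. In the second column control 5 lay at -1.31 in row 1, followed by MWCNT 1, 2 and 3 at -1.03, -0.44 and -0.33. The level thus went down the first column and up the second. Of the 27845 tested probes with a value on all 10 arrays, 4.10% fell down the first column and 10.1% rose up the second. Both held for 0.165%. All 3 MWCNT arrays of this slide were in the second column with 1 control, so column and exposure cannot be told apart there, and the part of position was not tested.

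**Figure D5:**
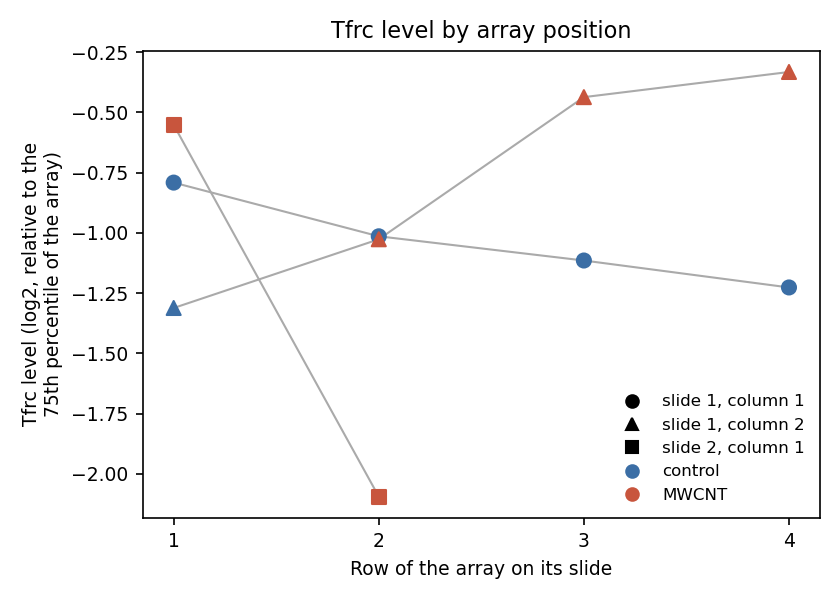
Tfrc level (log2, 0 at the array's 75th percentile) against the row of the array on its slide, with circles for the first and triangles for the second column of slide 1, and squares for slide 2. Blue marks controls and red MWCNT mice. Along rows 1 to 4 the level goes from -0.79 to -1.23 in the first column and from -1.31 to -0.33 in the second.

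The authors' deposited table, which holds normalized log2 values of the same arrays, gave Tfrc at 9.57, 9.31, 9.21, 9.14 and 9.02 in controls 1 to 5. In MWCNT mice 1 to 5 it gave 9.30, 9.90, 10.01, 9.78 and 8.25. These values placed the 10 mice in the same order as the scaled scanner values. They averaged 9.45 ± 0.72 (SD, n = 5) in the exposed and 9.25 ± 0.20 (SD, n = 5) in the control mice, a log2 fold change of 0.20 (limma adjusted p = 0.857). On slide 1 the deposited values gave 0.49 (exact permutation p = 0.0714). MWCNT 3 was highest and MWCNT 5 lowest under all 6 other ways of scaling tried, the deposited values included, and the order of all 10 mice was the same under 5 of them. After cyclic loess normalization MWCNT 4 moved above MWCNT 2, and MWCNT 1 above control 2.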

How the data were processed

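RNA was isolated with a PAXgene kit, freed of ribosomal RNA, amplified by random priming and labelled with Cy3, per the labels' protocols. Per the file headers, the deposited spot intensity came from Feature Extraction 11.0.1.1, with background subtracted and spatial trend removed, without adjustment from array to array. The series table that the authors deposited had a slope of 0.973 to 1.05 against the log2 scanner values, and so was read as log2 (correlation 0.988 to 1.00). Its columns share a median of 4.17, and for its normalization method the sources used here give no name.

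Control, non-matching and outlier spots were left out, and log2 spots of a probe averaged. The 75th percentile, over 23403 probes well above background on all arrays, was subtracted. Probes well above background on at least 5 of 10 arrays were tested in R 4.3.3 with limma 3.58.1 (2-sided), adjusted p-values being Benjamini-Hochberg's and the threshold 0.05. A probe whose spots were all outliers on an array was fitted without that array. Tfrc kept all 10 arrays. The fit was tested on simulated data with independent normal noise at the control SD in both groups. Those data held no slide difference, so the test does not cover it. The headers list the genome build mm9, so positions from the RefSeq table (GRCm38.p6), which matched 15 of 15 accessions, were not used. Normexp used median pixel signals.

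Named genes were Tfrc, the other genes with an accession, and the 3 most and 3 least like Tfrc by r. Genes and lists were chosen with earlier results of these data known. Labels give separate mice, and the number of arrays limits the precision.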

Additional observations from a re-analysis of the deposited data

Results flagged for a closer look

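In 14 sets of 5 values, 0 held a mouse whose gap to the others passed Dixon's critical value of 0.71. These covered the Tfrc level, the Tfrc level relative to the other named genes, the deposited Tfrc value, the Tfrc spot SD and 3 measures of the array, and chance flags about 1 in 20 such sets. For MWCNT 5 the gap to the next Tfrc level was 0.61 of the range of its group. The gap is that to the nearest neighbour, so 2 mice that stand apart together go unflagged. For the signal of the non-matching probes, where both slide 2 arrays read lowest, the gap of MWCNT 5 was 0.046 of the range.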

How the results depend on the processing

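For Tfrc the sign of the difference between MWCNT and control held and Tfrc was not called in 12 alternatives (0.17 to 0.56, limma adjusted p 0.277 to 1.00) and with each mouse left out (0.06 to 0.50). On slide 1 the same held in 6 alternatives (0.44 to 0.49) and with each mouse left out (0.36 to 0.71), and relative to the other named genes in 10 (0.12 to 0.50) and with each mouse left out (0.17 to 0.61). The replicate block gave 0.20 (limma adjusted p = 0.825), and 0.37 relative to the other genes. By construction it could not move either value. Nor could the other probe filters or the trended variance move the 0.20, or median scaling and the percentile over all probes the 0.37. In these alternatives the sign was therefore fixed in advance. The slide block gave the 0.49 of slide 1 by construction, so its sign is not a separate result. The correlation of deviations between same-numbered mice ran from -0.45 to 0.33, and 2 of 5 were closest to their own number. The MWCNT deviations also hold the difference between slides, which no control shares. These values therefore cannot decide whether the numbers pair the mice. With array weights, which were 0.174 for MWCNT 4 and 0.310 for MWCNT 5, Tfrc was at 0.56 (limma unadjusted p = 0.0121, adjusted p = 0.277) and 2 probes were called. All other alternatives, and leaving out each mouse, called 0 probes. Between slides, leaving out 1 MWCNT mouse gave -1.50 to 0.047, and 6 scalings gave -0.72 to -0.61. There 7559 probes were called, 13829 after normexp, 5061 to 7424 under the other 5 scalings and 0 to 8597 with 1 mouse left out. The upper end of that last range came from the fit without MWCNT 5. That fit keeps a single array on slide 2, so it cannot show that the count is stable. With both arrays of slide 2 kept, the counts were 889, 0 and 937 without MWCNT 1, 2 and 3. The ratio of Tfrc SDs was 1.52 to 5.58 with 1 mouse left out. These counts and ratios were added after seeing the data. Keeping outlier spots, chosen after seeing the data, gave 0.20.

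Correlations with Tfrc turned sign as follows, and the cause was not tested. Gusb was at -0.012 after quantile normalization, -0.043 after median scaling, -0.063 with the percentile over all probes, -0.051 in the deposited values and -0.072 over all 10 arrays. B2m was at -0.074 after median scaling, -0.115 with the percentile over all probes and -0.12 as Spearman's rho. Gk was at 0.26 after normexp and 0.12 over all 10 arrays, where Tuba1b was at 0.038 and Actb at 0.15. The count of genes past the adjusted threshold was 0 in each of the 8 alternatives.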
